A study of Caenorhabditis elegans with 2 samples.

Results

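The insulin-like peptide family of Caenorhabditis elegans was examined for binding of UNC-62 in whole L4 larvae, the last larval stage before adulthood. The family holds the genes named ins with a number, together with daf-28, and 39 of them are annotated as protein-coding in WBcel235 (ce11), among 19973 protein-coding genes on the nuclear chromosomes. Genes were chosen by name and their peaks by position, a peak belonging to a gene if its summit lay inside the gene or up to 5000 bp to either side. The family was taken up with the high rank of a peak beside ins-13 already known, so the values of that peak are given as a description. The data come from chromatin immunoprecipitation and sequencing (ChIP-seq) of strain OP602, a stable transgenic line in which UNC-62 carries GFP and FLAG at its C-terminus. The 2 biological replicates, of mixed sex, form the only group, so no condition was compared. A peak list from pooled reads held 30000 peaks, and lists of 15466 and 24524 peaks came from replicate 1 and replicate 2. A stricter list, which kept peaks passing a threshold on the irreproducible discovery rate (IDR), a measure of how alike replicates rank a peak, held 114. Ranks count from 1 at the highest signal value, a number that the authors' peak caller gave to each peak and whose normalization the sources used here do not state. Pooled values ran from 8.77 to 105, with a median of 11.4. Read depth is unknown.

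Insulin-like peptides are secreted ligands that act through DAF-2, the insulin receptor of the worm, and its kinase cascade, which keeps the FOXO transcription factor DAF-16 out of the nucleus. Some act as agonists, such as DAF-28 and INS-6, which favour reproductive growth over the dauer stage, and others oppose the receptor, such as INS-1 and INS-18. The family is large in this species and many of its genes lie in tandem clusters. UNC-62 carries a homeodomain and belongs to the Meis and Homothorax proteins, whose vertebrate and insect members bind DNA together with PBC and Hox proteins.

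The family's strongest peak is shown first as sequence, because its summit lay outside any protein-coding gene and beside a small RNA gene. The summit, at position 5543731 of chromosome II, lay 781 bp beyond the 3′ end of ins-13 (chrII:5544512-5544864, minus strand), its nearest protein-coding gene, in sequence annotated as intergenic. It lay 24 bp from the end of sls-2.2 (chrII:5543598-5543707, plus strand) and 433 bp from sls-2.3 (chrII:5544164-5544273, minus strand). These genes encode SL2 RNA, the spliced leader that is joined to transcripts from downstream genes of operons. The short non-coding gene C17C3.23, on the minus strand, had its start 33 bp from the summit and overlapped sls-2.2. The 299 bp centred on the summit (chrII:5543582-5543880, plus strand, WBcel235) are given 5′ to 3′, with sls-2.2 in capitals.
ins-13 summit: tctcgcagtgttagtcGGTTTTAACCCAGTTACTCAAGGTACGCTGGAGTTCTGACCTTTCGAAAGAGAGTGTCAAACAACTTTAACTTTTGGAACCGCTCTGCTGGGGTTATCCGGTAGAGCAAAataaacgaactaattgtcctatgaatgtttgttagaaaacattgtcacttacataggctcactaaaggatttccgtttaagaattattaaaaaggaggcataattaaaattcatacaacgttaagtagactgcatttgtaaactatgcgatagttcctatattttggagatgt

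Other SL2 RNA genes resembled sls-2.2 closely, and the copies on chromosome II are given on their transcript strands, 5′ to 3′, with bases that differ from sls-2.2 in capitals.
sls-2.2: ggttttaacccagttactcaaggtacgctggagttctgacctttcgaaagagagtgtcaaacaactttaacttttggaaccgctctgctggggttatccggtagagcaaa
sls-2.3: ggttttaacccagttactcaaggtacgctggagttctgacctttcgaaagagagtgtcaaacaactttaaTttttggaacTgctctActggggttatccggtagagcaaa
sls-2.1: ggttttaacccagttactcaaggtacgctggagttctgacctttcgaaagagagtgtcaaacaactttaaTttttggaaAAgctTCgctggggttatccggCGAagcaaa

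Position by position and without gaps, sls-2.3 matched sls-2.2 at 107 of 110 bases, sls-2.1 (chrII:5844865-5844974) at 102 and sls-2.4 at 106. These 4 genes were also those with an IDR summit within 500 bp, shared by sls-2.2 and sls-2.3 (rank 7) and separate at sls-2.4 (rank 10) and sls-2.1 (rank 59). The other 14 of the 18 annotated sls-2 genes matched at 40 to 82 bases and had no IDR summit within 500 bp. Most of these 14 are not 110 bp long (range 107 to 114 bp), so a count without gaps can understate their likeness to sls-2.2. The SL2 genes were looked at after the peak's position was seen, and the share of other genes with an IDR summit within 500 bp was not computed. How reads that match several copies were placed is not given in the sources used here, and its part in the height of these peaks was not tested.

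At this site the signal value was 33.2 in replicate 1, where the peak ranked 6, and 34.5 in replicate 2, where it ranked 16. In the pooled and IDR lists it was 66.3, at rank 7 of both. Both replicates thus placed the site among their 16 strongest peaks, and their values differed little. The IDR list ended at a signal value of 32.52, and the strongest pooled peak outside it had 32.48. The same summit fell within 5000 bp of 4 further protein-coding genes, namely acdh-2, C17C3.24, hlh-27 and C17C3.11, of which hlh-27 encodes a bHLH transcription factor.

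The other 4 pooled summits in the window of ins-13 had lower pooled signal values than this peak, of at most 16.5. Upstream of the gene, summits at 440 and 654 bp had pooled signal values of 16.5 (rank 3420) and 14.3 (rank 6559), the first in a coding exon and the second in the 3′ UTR of acdh-2. Both overlapped the same peak of replicate 1 (signal value 10.04, rank 3158) and the same peak of replicate 2 (6.59, rank 12789). A summit 4581 bp upstream had a pooled signal value of 14.2 and overlapped a peak of replicate 2 only. On the far side, 3334 bp from the gene in an intron of C17C3.24, a pooled signal value of 9.74 (rank 23757) stood beside one of 12.5 (rank 931) in replicate 2. The peak beside sls-2.2 was therefore the only one in the window with a rank of 1000 or better in more than 1 list.

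**Figure D1:**
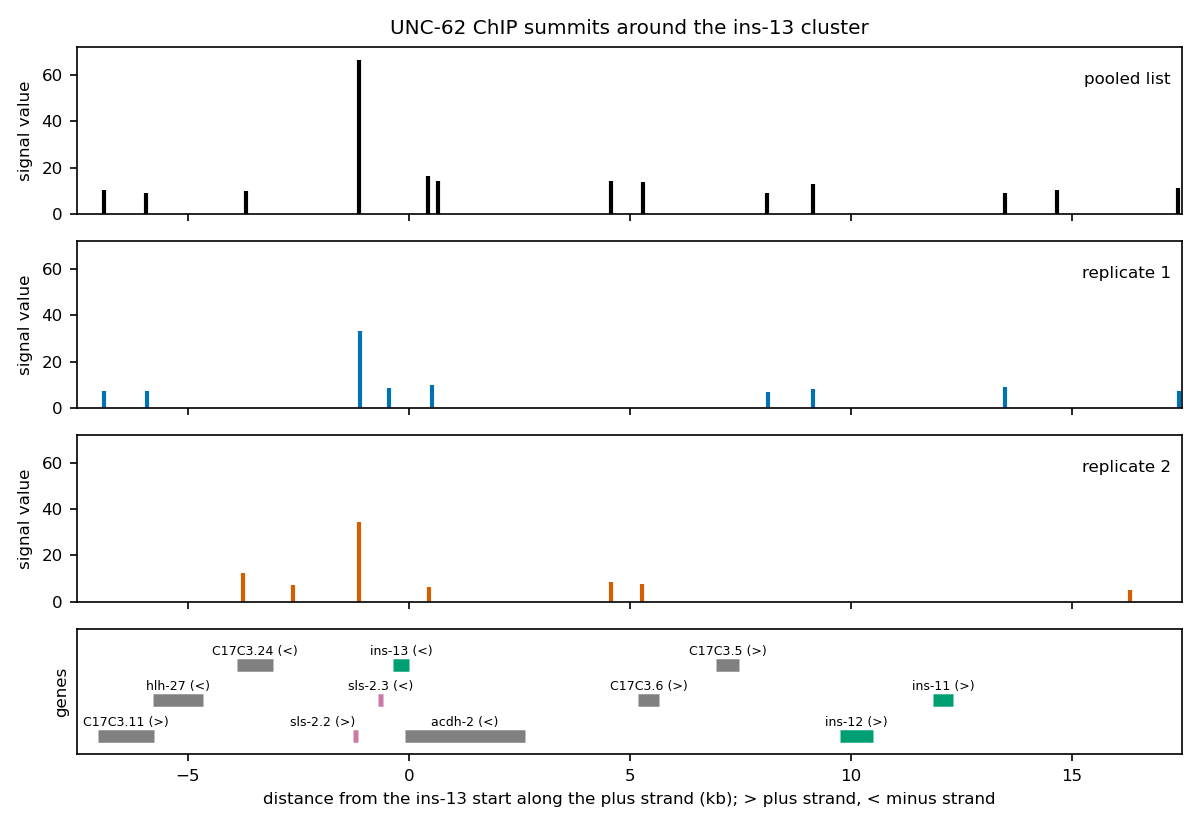
Signal value of each peak at its summit, in the pooled list and in the lists of replicates 1 and 2, against distance in kb from the start of ins-13 along the plus strand; the lowest panel shows ins genes (green), SL2 RNA genes (pink) and other protein-coding genes (grey). The summit 1133 bp to the left of the start, beside sls-2.2, reached 66.3, 33.2 and 34.5 in these lists, and the summits within 5000 bp of ins-12 or ins-11 reached at most 13.9 in the pooled list.

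No other member had an IDR summit inside it or within 5000 bp. That is 1 of 39 genes, or 2.56% (95% exact Clopper-Pearson interval 0.0649 to 13.5%), against 1.44% of 19934 other protein-coding genes, a background inside the interval. Without peaks that had a summit within 500 bp of a spliced leader RNA gene, a choice made after the values were seen, it was 0 of 39 members, against 1.37% of the other genes. The nearest IDR summit to any other member was the same one, 10886 bp from ins-12 and 13000 bp from ins-11. After these came ins-39, at 45124 bp from an IDR summit. Intervals here cover counting error over genes only, and clustered genes share peaks.

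Below ins-13, another 6 members had a pooled peak of rank 1000 or better, from 5 distinct sites. In all these were 7 of 39 members, or 17.9% (95% exact interval 7.54 to 33.5%), against 12.0% of the other genes. The strongest was in the window of ins-17, whose product opposes DAF-2 signalling in dauer formation. Its summit lay 4560 bp beyond the 3′ end of ins-17 in the 3′ UTR of ifet-1, and had a signal value of 24.4 (rank 396), with 11.1 in replicate 1 and 12.2 in replicate 2. A second site in ifet-1, 2831 bp from ins-17, had a signal value of 20.6 (rank 1071). The highest rank of replicate 2 in this window, 316, belonged to another site 1257 bp from ins-17, where the pooled signal value was 11.9 and replicate 1 had no overlapping peak.

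The neighbours ins-7 and ins-8 shared their strongest site. INS-7 is an agonist made in the intestine among other tissues, under control of DAF-16. The summit (chromosome IV, position 9677590) was intergenic and nearest to nhr-34, at 2747 bp from ins-8 and 4421 bp from ins-7, both downstream of the genes. Its signal value was 23.8 in the pooled list (rank 484), 11.9 in replicate 1 (rank 1258) and 9.24 in replicate 2 (rank 4023). This rank in the pooled list was thus better than in either replicate's list, as it was for ins-17 at its strongest site, ins-37 and ins-33.

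At ins-37 the strongest summit lay 868 bp beyond the gene, in intergenic sequence nearest to F08G2.5, with a signal value of 22.4 in the pooled list (rank 655), 8.66 in replicate 1 (rank 6225) and 10.4 in replicate 2 (rank 2315). At ins-33, reported as a target of the heterochronic regulator LIN-14, the summit lay 1001 bp beyond the gene with values of 21.1 (rank 927), 10.4 (rank 2536) and 9.74 (rank 3193) in the same lists. At ins-39, on the X chromosome, the values were 21.1 (rank 906), 7.44 (rank 10595) and 13.9 (rank 568). The ins-39 site ranked high in replicate 2 and far down in replicate 1.

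Of the sites of rank 1000 or better, that of ins-39 alone lay upstream of its gene, 428 bp from the start, and it had no closer protein-coding gene. Its sequence is therefore given (chrX:1344749-1344949, plus strand, WBcel235), 5′ to 3′, with the summit base in capitals.
ins-39 summit: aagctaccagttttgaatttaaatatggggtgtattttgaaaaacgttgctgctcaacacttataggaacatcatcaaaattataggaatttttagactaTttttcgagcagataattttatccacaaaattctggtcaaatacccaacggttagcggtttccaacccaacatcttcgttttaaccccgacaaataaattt

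**Figure D2:**
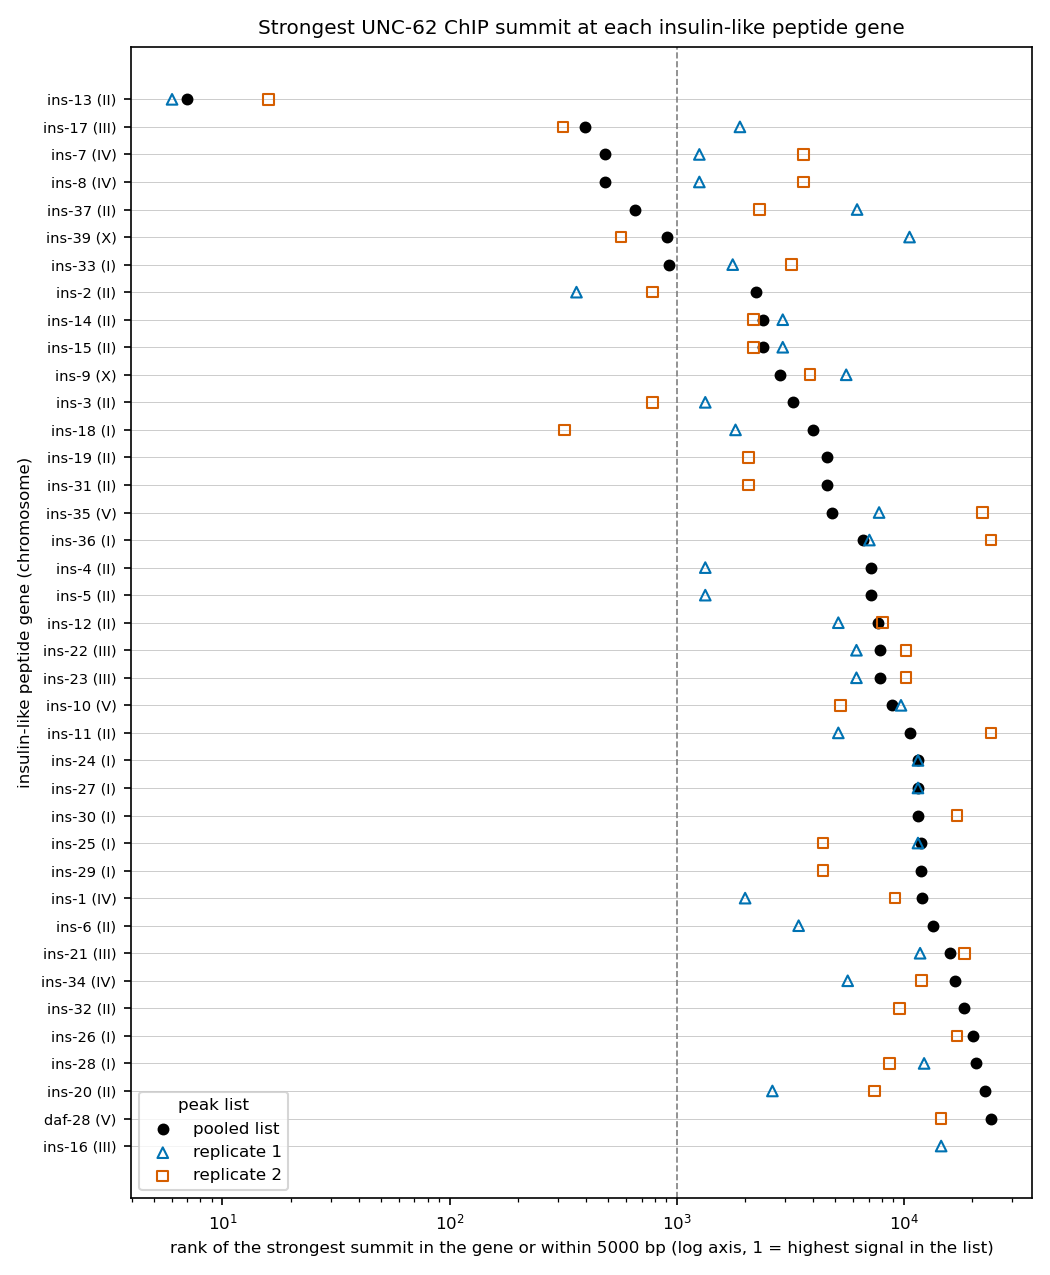
Rank of the strongest summit in or within 5000 bp of each of the 39 genes in the pooled list (filled circles), replicate 1 (triangles) and replicate 2 (squares), on a log axis with 1 as the highest signal; the dashed line marks rank 1000. Only ins-13 lies near rank 10 in all 3 lists, most genes lie beyond rank 1000, and a missing symbol means that the list held no summit there.

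The genes daf-28, ins-6, ins-1 and ins-18, all studied for their roles in dauer formation, had best pooled ranks beyond 1000. The window of daf-28 held 1 pooled summit, 2228 bp upstream of the start, with a signal value of 9.65 (rank 24158), 6.33 in replicate 2 (rank 14563) and no overlapping peak in replicate 1. For ins-6 the best of 3 summits lay 1279 bp beyond the gene, with 11.9 in the pooled list (rank 13490), 9.87 in replicate 1 (rank 3442) and none in replicate 2. For ins-1, the member most like vertebrate insulin, the best of 5 had 12.2 (rank 12032), in an exon of the neighbouring F13B12.3, and 11.0 in replicate 1 (rank 2001). A stronger site, of rank 684 with a pooled signal value of 22.2, lay 6707 bp from ins-1 and so outside the window. It was the only site of rank 1000 or better between 5000 and 10000 bp from a member.

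For ins-18 the best pooled summit lay 2640 bp upstream, with 16.1 in the pooled list (rank 3963), 11.1 in replicate 1 (rank 1815) and no overlapping peak in replicate 2. Replicate 2 instead had a peak of rank 321 (signal value 15.6) in an intron of T28B8.3, 3551 bp beyond ins-18, which no peak of replicate 1 overlapped. The replicates thus differed at this gene in which site was strong. For ins-3, which promotes germline proliferation together with ins-33, the summit lay in an intron of the gene itself, 324 bp from its start, with 16.8 in the pooled list (rank 3240), 12.998 in replicate 2 (rank 783) and none in replicate 1. At the low end, ins-16 had no pooled summit within 5000 bp, the nearest lying at 8038 bp. Its window held 1 weak peak of replicate 1 (signal value 6.75, rank 14596). At the edge of the window, the last summit inside lay 4999 bp from ins-30 (rank 20318) and the first outside lay 5030 bp from ins-23 (rank 28566).

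Most ins genes are clustered, and many clustered genes shared peaks. With at most 20000 bp between neighbours, 25 of the 39 genes fell into 7 clusters and 14 stood alone. The 39 windows together held 90 distinct pooled summits, of which 31 lay in the windows of 2 or more members, and of at most 4. All 31 were among the 44 summits in the windows of clustered genes. This follows from the definitions, since windows of genes more than 20000 bp apart cannot overlap. None of the 5 summits in the window of ins-13 lay in the window of another member, but that window overlaps only slightly with the window of ins-12. By chromosome, 15 members lay on II, 10 on I, 5 on III, 4 on IV, 3 on V and 2 on X. Clustered genes had a median best pooled rank of 7841, and 3 of the 25 reached rank 1000, where 12.0% of other protein-coding genes did. Genes standing alone had a median of 4828 over the 13 with a summit, and 4 of the 14 reached rank 1000. Over genes with a summit, the order of the medians was the reverse in each replicate. In replicate 1 the median was 3186 over 20 of the 25 clustered genes and 5942.5 over 12 of the 14 standing alone. In replicate 2 it was 4399 over 20 clustered genes and 5264 over 13 standing alone. Genes without a summit, a larger share of the clustered genes in both replicates, are left out, so the order holds only for genes with one.

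The largest cluster held 7 genes in 25409 bp on I (ins-28, ins-29, ins-25, ins-27, ins-24, ins-30 and ins-26). Its best site ranked 11564, with a pooled signal value of 12.4 shared by ins-24, ins-27 and ins-30, and none of its 10 summits overlapped peaks of both replicates. The cluster of ins-2, ins-3, ins-4, ins-5, ins-6 and ins-20 spanned 22798 bp on II and also had 10 summits, none of them overlapped in both replicates. Its best, 4028 bp upstream of ins-2, had 18.04 in the pooled list (rank 2244) and 14.4 in replicate 1 (rank 362), with no overlapping peak in replicate 2. In the cluster of ins-13, ins-12 and ins-11, 3 of 10 summits were overlapped in both replicates, all of them within 5000 bp of ins-13. There ins-12 had a best pooled signal value of 13.9 (rank 7714). The best value of ins-11, known from the response to pathogenic bacteria, was 12.8 (rank 10603).

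The smaller clusters had between 3 and 5 summits each. The best site of ins-19 and ins-31 lay in a coding exon of ins-31, with 15.6 in the pooled list (rank 4588) and 10.7 in replicate 2 (rank 2064). That of ins-14 and ins-15, between the genes and 99 bp from ins-14, had 17.8 (rank 2397) and 10.6 in replicate 2 (rank 2181). Neither site overlapped a peak of replicate 1. The best site of ins-21, ins-22 and ins-23 was in the windows of ins-22 and ins-23, with 13.8 in the pooled list (rank 7841), 8.67 in replicate 1 (rank 6185) and 7.16 in replicate 2 (rank 10222). Apart from ins-13, the pair ins-7 and ins-8 thus gave the only cluster with a site of rank 1000 or better.

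**Figure D3:**
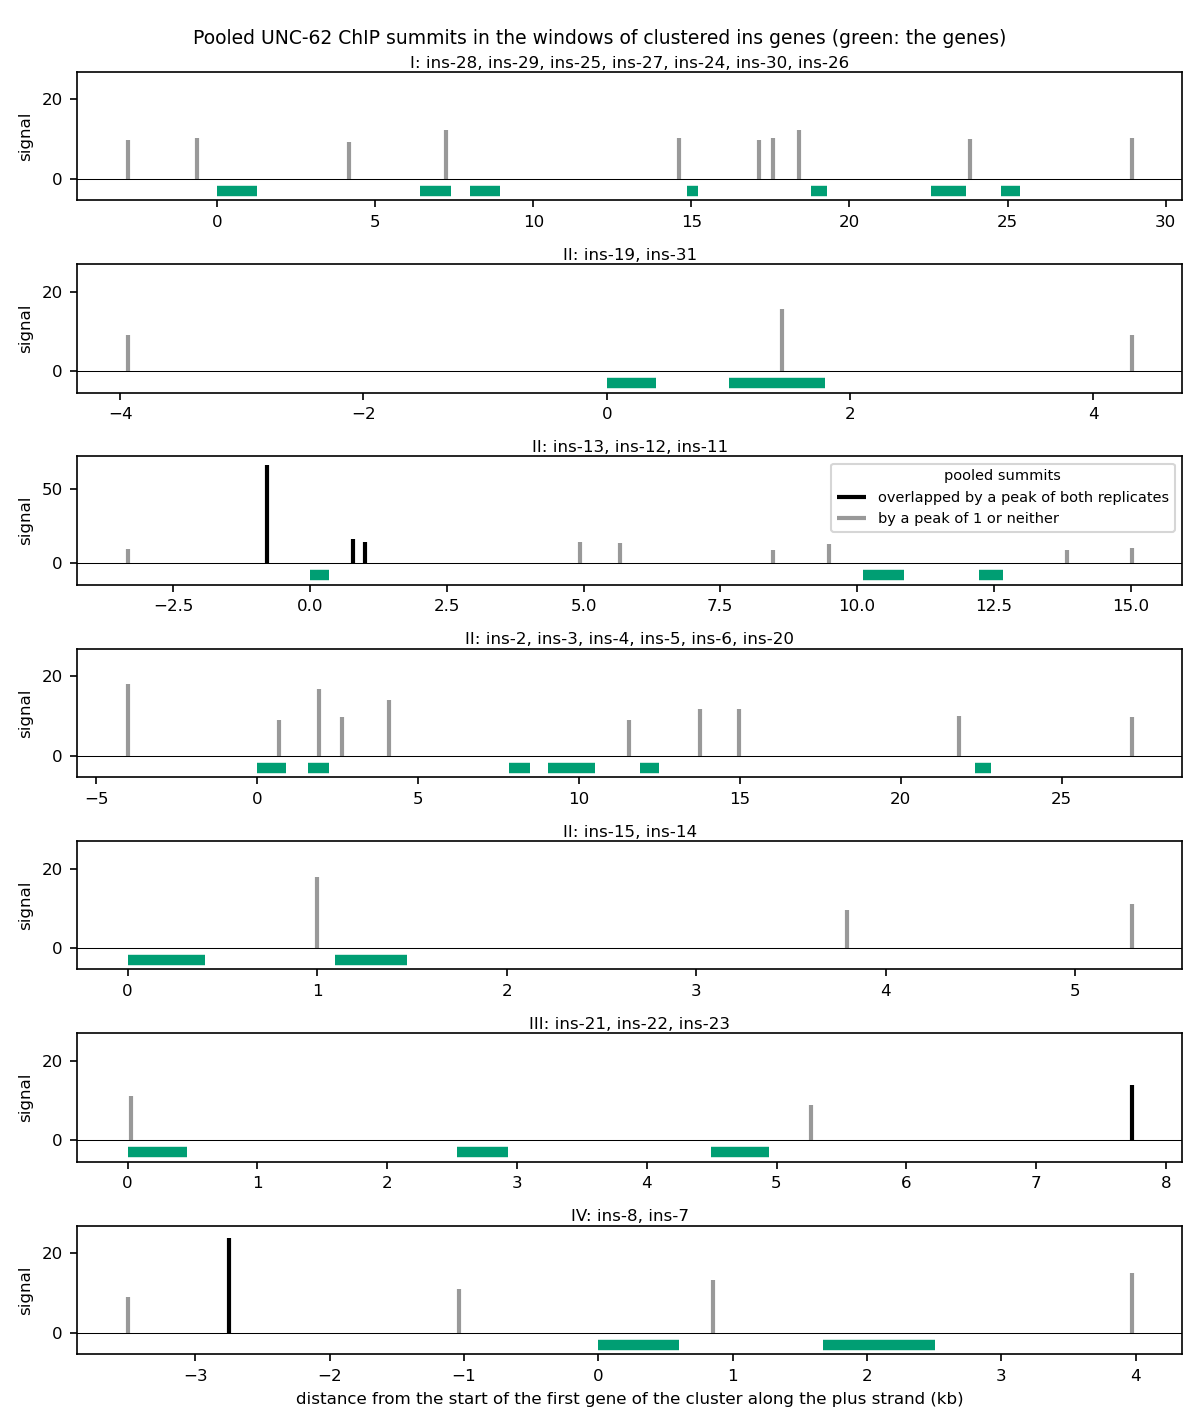
Pooled signal value of each summit in the windows of the 7 clusters, against distance in kb from the start of the first gene; green bars are the ins genes, black lines are summits overlapped by a peak of both replicates and grey lines the remainder. The site beside ins-13 reached 66.3 (note its longer axis), and no other cluster exceeded 23.8.

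Set beside the other protein-coding genes, the family as a whole had a lower median rank in the pooled list. A pooled summit was found for 38 of 39 members, or 97.4%, against 95.9% of the other genes. The median best pooled rank was 7432.5 over these 38 members, against 5540 over the other genes. Members were short, with a median length of 655 bp against 2030 bp, and among other genes no longer than the longest member (2788 bp) the median rank was 6136. In replicate 1 the median best rank was 5147 over the 32 members with a summit, against 4409 over 16705 other genes. In replicate 2 it was 4399 over 33 members, against 5390 over 18611 other genes. The order of these medians therefore differed between the replicates. They leave out genes without a summit, which in replicate 2 were a larger share of members than of other genes. The order in replicate 2 thus holds only for genes with a summit.

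**Figure D4:**
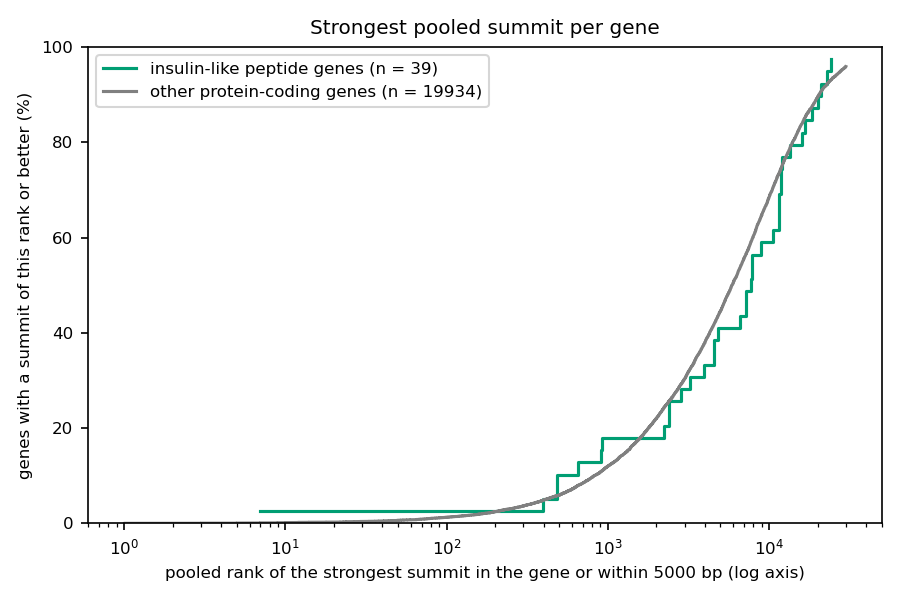
Share of genes (%) whose strongest pooled summit had a given rank or better, for insulin-like peptide genes (green, n = 39) and other protein-coding genes (grey, n = 19934), on a log axis of rank. The green line lies above the grey line at rank 1000 (17.9% against 12.0%) and below it near rank 5540, the median of the other genes.

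Summits were not denser around the family than elsewhere. The merged windows of the members covered 297 kb and held 0.303 pooled summits per kb, against 0.299 per kb in the nuclear genome. With each gene's window counted separately, replicate 1 had 0.149 summits per kb for members, against 0.158 for other genes. In replicate 2 the value was lower for members, with 0.182 against 0.251, and 0.250 for other genes no longer than the longest member. Windows of clustered members overlap, so stretches they share count more than once here. Merged windows were not counted for the replicates. Inside the genes themselves 7 summits were found, 1 each in ins-2, ins-3, ins-21, ins-29, ins-31, ins-36 and ins-37. That is 17.9% of members (95% exact interval 7.54 to 33.5%), against 51.0% of all other genes, which were mostly longer. Among other genes no longer than the longest member it was 37.2%, and their median length of 1436 bp still exceeded that of members. Per kb of gene the members had 0.217, from only 7 summits. The value was 0.302 for all other genes and 0.312 for those no longer than the longest member. From a start to 2000 bp upstream, 19 of 39 members had a pooled summit, or 48.7% (95% exact interval 32.4 to 65.2%), against 52.7% of the other genes. By annotation, 50 of the 90 distinct summits were intergenic, 29 lay in another protein-coding gene, 7 in a member and 4 in a non-coding gene. The nearest protein-coding gene was a member for 39 of the 90. Of the members, 27 were nearest to at least 1 of the summits in their window, where 65.8% of the other genes were.

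The share of the family's sites seen in both replicates was close to that of pooled peaks in general. A peak of replicate 1 had its summit in the window of 32 of 39 members, or 82.1%, against 83.8% of the other genes. For replicate 2 these were 33 members, or 84.6% (95% exact interval 69.5 to 94.1%), against 93.4%. A pooled peak overlapped by peaks of both replicates, by at least 1 bp, was found for 12 of 39 members, or 30.8% (95% exact interval 17.02 to 47.57%), against 47.2% of the other genes. Most other genes are longer and so have wider windows, and the part of this in the difference was not tested. Counted by peak, 16 of the 90 distinct summits (17.8%) were overlapped in both replicates, against 20.1% of all 30000 pooled peaks, and 24 (26.7%) in neither, against 20.7%. Both replicates had a peak of rank 1000 or better in the windows of ins-13 and ins-2, and at ins-2 these were different sites. In replicate 2 alone this held for ins-3, ins-17, ins-18 and ins-39, and in replicate 1 alone for no member. The replicate 2 peak counted for ins-3 (rank 783) was the same one as for ins-2. The share of other genes reaching this rank in each replicate was not computed, so these counts cannot be called high or low. The members without any summit of replicate 1 were daf-28, ins-19, ins-26, ins-29, ins-30, ins-31 and ins-32, and those without any of replicate 2 were ins-4, ins-5, ins-6, ins-16, ins-24 and ins-27.

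The core sequence of Meis factors was no more frequent at these sites than at pooled peaks in general. Within 100 bp of the summit, on either strand, TGACAG was present at 6 of the 90 family sites (6.67%), against 7.57% of all pooled peaks and 13.2% of IDR peaks. GAGAGA, a repeat frequent in IDR peaks of these data, was present at 10 (11.1%), against 13.6% of all pooled peaks and 43.0% of IDR peaks. Of the 6 sites of rank 1000 or better, only that of ins-17 held either sequence, GAGAGA at chrIII:4472291-4472296. The ins-13 site held neither within 100 bp. Among the 10 strongest family sites, TGACAG occurred only at that of ins-2. A match of either motif can share at most 1 base with a match of the other, and a match of letters is not evidence of binding.

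Genes that act with the peptides were read in the same way, from a list of 20 genes of the receptor pathway and of peptide processing and release, all of which were matched. An IDR summit was found for 1 of the 20, against 1.44% of other genes, and it was that of egl-3, a proprotein convertase that processes neuropeptides. It lay 1247 bp upstream of egl-3, in the non-coding gene C51E3.11, with 36.7 in the pooled list (rank 78), 14.1 in replicate 1 (rank 413) and 21.5 in replicate 2 (rank 90). A pooled rank of 1000 or better was found for 4 of the 20, against 12.0% of other genes. Besides egl-3 these were aex-5, another convertase (26.4, rank 276), egl-21, a carboxypeptidase of the same processing (24.7, rank 382), and daf-16 (22.8, rank 600). The site of egl-21 lay 92 bp upstream of its start and had 17.1 in replicate 1 (rank 119) and 8.67 in replicate 2 (rank 5184), and that of daf-16 lay in an intron of the gene. At the site of aex-5 the peak ranked 1233 in replicate 1 and 4220 in replicate 2, and at that of daf-16 it ranked 273 in replicate 1 and 6447 in replicate 2. The receptor gene daf-2 had a best rank of 3776 (16.2), and age-1, the catalytic subunit of its PI3 kinase, one of 14283 (11.7). The median best pooled rank of the list was 3169, against 5540 for the other genes. These genes had a median length of 5471.5 bp, so their windows were wider than those of most genes.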

How the data were processed

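Per the labels and the deposited readme texts, the authors made narrowPeak lists in ce11 from each of 2 replicates and from pooled reads, against a control alignment of another series that was not analysed here, and thresholded them by IDR. Neither the aligner, the peak caller nor the threshold on IDR is given in the sources used here. The deposited signal value of each peak was used for ranks (ties share the better rank) and for description. The ce10 lists were not used, since no position was converted between builds. Read depth is unknown.

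Summits (column 2 plus column 10, counted here from 1) were assigned to protein-coding genes of Ensembl release 115 (WBcel235) with flanks of 5000 bp. All 39 symbols were also found in RefSeq, whose WBcel235 genome gave the sequences. Each gene's best rank, counts and the strongest overlapping replicate peak were computed with pandas 2.3.3 and NumPy 2.4.6 under Python 3.11.15, intervals with SciPy 1.17.1, and figures with matplotlib 3.10.9. Assignment was tested on simulated data, and 200 of 200 planted summits were placed correctly. With 1 group there was no test between conditions, and shares carry exact intervals only. Members and lists were chosen with earlier results of these data known. Named genes were those with an IDR summit, those with a best pooled rank of 1000 or better, the best of each cluster, and ins-1, ins-3, ins-6, ins-7, ins-18 and daf-28. Genes outside this rule were named after their values were seen. Alternatives covered the window, the assignment, the peak list and each replicate alone.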

Additional observations from a re-analysis of the deposited data

How the results depend on the processing

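With flanks of 2000 or 10000 bp, windows around transcript starts, nearest genes only, any overlap of the peak, a stricter IDR list of 57 peaks, or as many strongest peaks of either replicate alone (range 1 to 1), ins-13 was the only member with a peak. Under these choices the share of other genes with a peak ran from 0.512% (nearest genes only) to 2.50% (flanks of 10000 bp). With the 1000 strongest pooled peaks there were 7 members, against 12.0% of the other genes, and 6 peaks. Leaving out peaks within 500 bp of a spliced leader RNA gene, an alternative chosen after seeing the data, gave 0 members and 0 peaks, and the strongest remaining signal value was 24.4. In either replicate alone the strongest value ranged from 33.2 to 34.5. The median best pooled rank of members was 11875 with flanks of 2000 bp (8316.5 for other genes), 4588 with 10000 bp (3460) and 11564 with nearest genes only (9950). Within each replicate's own, shorter list the median best rank was 5147 in replicate 1 (4409 for other genes) and 4399 in replicate 2 (5390). Members with a pooled summit numbered 27 (nearest genes only) to 39 (flanks of 10000 bp) under these choices. Among other genes the share with one also moved, from 65.8% (nearest genes only) to 98.97% (flanks of 10000 bp). No paired analysis was possible because there was 1 group. The unknown read depth limits what weak peaks can show.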

Other observations

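Spliced leader RNA genes were counted in the same lists, with no test between their classes. The share of other genes with a summit within 500 bp was not computed, so these counts cannot be called high or low. Of the 18 annotated sls-2 genes, which encode SL2 RNA, 9 had a pooled summit within 500 bp, with a median best rank of 948, and sls-2.2 and sls-2.3 shared their summit. Of the 12 annotated sls-1 genes on chromosome V, which encode the SL1 RNA that is joined to most trans-spliced transcripts, 0 had one. These copies all lie close together, between positions 17118154 and 17132107. How reads matching several copies were handled is not given in the sources used here, and its part in these counts was not tested. Among the sls-2 genes without an IDR summit, sls-2.6 had the best pooled rank, 948 (signal value 20.98), and sls-2.7 the next, 1847 (18.7).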
